A study of Mus musculus with 8 samples.

Results

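Actb, which encodes the nonmuscle β-actin, and Tuba1b, which encodes an α-tubulin, were compared between pressure-overloaded and sham-operated mouse hearts. They are 2 of 15 genes that the array names by a RefSeq mRNA accession and prints as 20 spots each, out of 60915 noncontrol probes. Actb was read by the probe with accession NM_007393.3 and Tuba1b by the probe with accession NM_011654.2, and both were taken by probe identity, without regard to their signal. RNA came from hearts of wild type male C57BL/6J mice, 8 to 10 weeks old, and each array was hybridised with material labelled with Cy3, a green fluorescent dye. The 4 banded mice, 1 per array, had a suture tied around the descending aorta over a needle of 26 gauge, and the 4 sham mice, 1 per array, had a comparable operation. Hearts were taken 4 weeks after surgery, and no gene was altered in either group. The RNA is from the heart as a whole, so fewer cells of a type and less RNA per cell cannot be told apart. The 21 cell type markers looked for, cardiomyocyte genes among them, are not named in the files used here, so the tissue label was not checked against them.

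Actin and tubulin build the filaments that give a cell its shape. β-actin monomers assemble into microfilaments that drive adhesion, motility and contraction outside the sarcomere, while α- and β-tubulin pair into the heterodimers from which microtubules grow. In the heart the contractile thin filament is made of the sarcomeric actins, and β-actin is found mainly in nonmuscle cells such as fibroblasts and endothelial cells and in the submembrane skeleton of muscle cells. Microtubules in cardiomyocytes carry cargo and resist shortening, and a denser microtubule network has long been described in hearts under pressure overload. Both genes are also widely used as references for expression work.

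The files give no probe sequence. The RefSeq promoter table (build GRCm38.p6) held Tuba1b, and its 250 bases before the gene's start are shown because they are the control region of a member whose level is followed through all arrays below. The region is chr15:98934391-98934640 on the minus strand, read 5′ to 3′, with capitals marking GC boxes.

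Tuba1b: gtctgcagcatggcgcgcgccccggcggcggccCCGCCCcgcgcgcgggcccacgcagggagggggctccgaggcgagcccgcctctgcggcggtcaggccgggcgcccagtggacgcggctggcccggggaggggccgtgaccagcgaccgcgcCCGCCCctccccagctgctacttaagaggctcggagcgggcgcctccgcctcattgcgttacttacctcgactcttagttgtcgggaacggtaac

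G and C made up 75.6% of these bases, against a median of 52.4% over the same window of 32851 promoters. The GC box GGGCGG, searched on both strands, matched 2 times without overlap, at 217 and 95 bases before the start, and 32.7% of all promoters held it. The TATA box TATAAA and the CCAAT box CCAAT, also searched on both strands, had 0 matches in this window and were present in 12.4% and 33.8% of promoters. These matches describe letters only, as the arrays measured RNA and not factor binding.

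All 8 arrays lay on 1 slide, in 2 rows of 4. Row 1 held banded 1, sham 2, sham 3 and sham 4 in columns 1 to 4, and row 2 held banded 2, banded 3, banded 4 and sham 1. The 75th-percentile signal of an array, used here as its scale, lay between 143 and 255 units on the banded arrays and between 178 and 206 on the sham arrays. Neighbouring arrays in columns 1 and 2 or 3 and 4 of a row were close to each other: over 15117 bright probes the spread of their log2 differences was 0.97 to 1.34 times the noise between copies of a probe, against 2.61 to 5.26 times for the other 24 pairs of arrays. Sham 3 and sham 4 differed by less than that noise, as did banded 1 and sham 2, which carry different surgery labels. Banded 4 with sham 1, and banded 2 with banded 3, differed by 1.17 and 1.34 times the noise. The labels name 8 mice, so all 8 arrays entered the main fit, and each surgery result is also given with sham 3 and sham 4, and banded 2 and banded 3, averaged and counted as 1 sample. Nothing else in the labels says that the mice were operated on or processed independently, so p-values measure the spread between these arrays.

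Both transcripts were bright on every array. All 160 Actb spots and all 160 Tuba1b spots were well above background, and none was saturated. The lowest array mean was 564 times the local background for Actb and 1016 times for Tuba1b. No Actb spot and 8 Tuba1b spots were set aside as outliers. Copies of a probe on the same array had a coefficient of variation of 2.11% to 4.65% for Actb and 1.84% to 4.84% for Tuba1b, so the mean of an array carried a spot error of at most 0.02 on the log2 scale. Spot error was thus far smaller than the distance between arrays, which spanned 2.48-fold for Actb and 2.02-fold for Tuba1b relative to the 75th percentile.

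The processed signal of Actb was 15651 ± 725 units (SD between copies) on banded 1, 18370 ± 665 on banded 2, 16632 ± 774 on banded 3 and 25141 ± 542 on banded 4. On the sham arrays it was 26493 ± 1078 on sham 1, 12412 ± 262 on sham 2, 17059 ± 597 on sham 3 and 16939 ± 399 on sham 4. The highest and the lowest Actb signals both came from sham hearts, so the groups overlapped over their whole range. Relative to the 75th percentile of the same array, the log2 level of Actb was 5.94, 6.86, 6.86 and 7.17 on banded 1 to 4 and 7.22, 5.91, 6.51 and 6.38 on sham 1 to 4. The overlap remained: banded 1 lay with sham 2 at the low end and sham 1 with banded 4 at the high end.

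The processed signal of Tuba1b was 27868 ± 821 units (SD between copies) on banded 1, 32241 ± 1312 on banded 2, 31598 ± 1531 on banded 3 and 36843 ± 1332 on banded 4. On the sham arrays it was 37526 ± 1706 on sham 1, 22850 ± 700 on sham 2, 24316 ± 863 on sham 3 and 24871 ± 459 on sham 4. Here 3 banded arrays and sham 1 stood above banded 1 and the other 3 sham arrays. On the log2 scale relative to the 75th percentile, Tuba1b was at 6.77, 7.68, 7.79 and 7.72 on banded 1 to 4 and at 7.72, 6.79, 7.02 and 6.93 on sham 1 to 4. On this scale banded 1 lay below every sham array, but only 0.02 below sham 2, with a spot error of 0.01. In processed signal it stood above sham 2, sham 3 and sham 4.

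**Figure D1:**
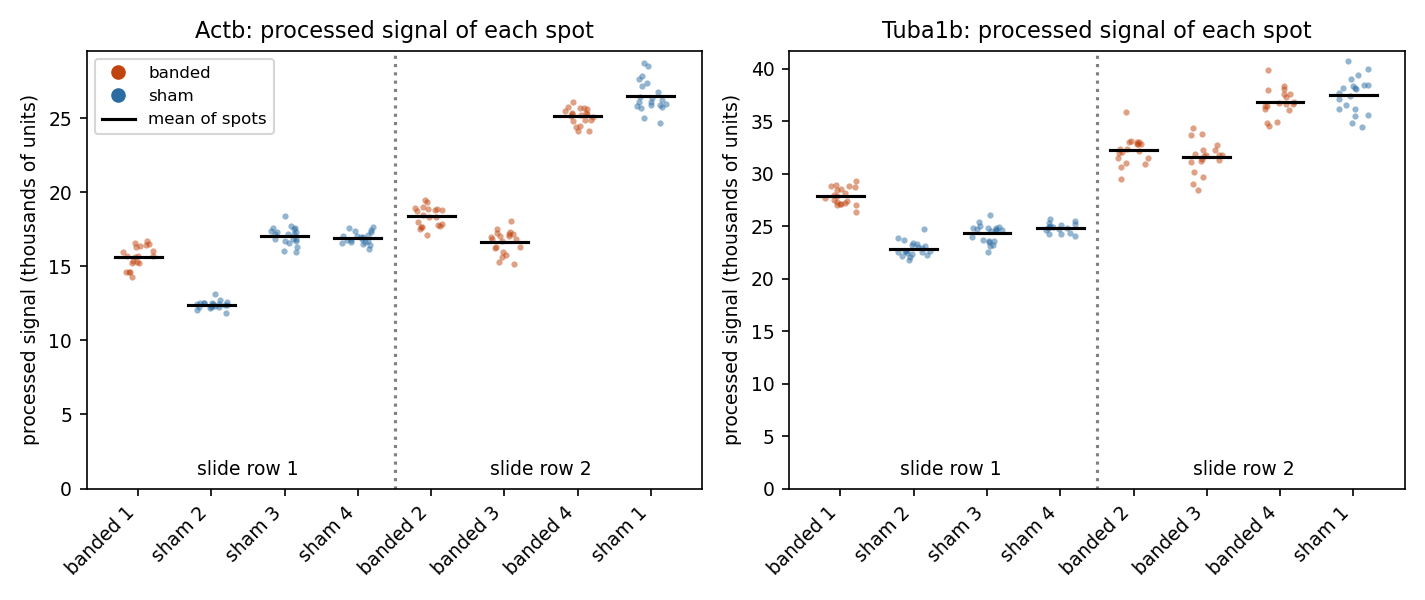
Processed signal of each unflagged spot (points, on a linear axis from 0) and the mean of the spots (black bars) on the 8 arrays, in slide order with row 1 left of the dotted line, for Actb and Tuba1b. Copies of a probe lie close together, from 2.11% to 4.65% in coefficient of variation for Actb, while arrays of 1 surgery group lie far apart, with sham 2 at 12412 and sham 1 at 26493 units for Actb.

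The first comparison asked whether the 2 cytoskeletal genes differ in level after aortic banding. Neither was called. The log2 level of Actb averaged 6.71 ± 0.53 on the banded arrays and 6.51 ± 0.54 on the sham arrays (SD, n = 4 each). The banded minus sham difference was 0.20 on the log2 scale (SE 0.33, 95% interval -0.53 to 0.93), a ratio of 1.15 with an interval of 0.694 to 1.91, and its limma adjusted p was 0.793. Tuba1b averaged 7.49 ± 0.48 over banded and 7.12 ± 0.41 over sham arrays, a difference of 0.37 (SE 0.28, 95% interval -0.26 to 1.00) and a ratio of 1.29, with a limma adjusted p of 0.612. Both differences were smaller than the spread between arrays of a group. The intervals leave room for ratios from 0.694 to 1.91 for Actb and from 0.838 to 2.00 for Tuba1b. The data thus do not show that the levels were alike.

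The threshold was an adjusted p of 0.05 (limma, Benjamini-Hochberg adjustment over 35782 tested probes), and 0% of all tested probes passed it. At an unadjusted limma p under 0.05 the share was 7.08% (2533 probes), and neither gene was among them, at 0.546 for Actb and 0.214 for Tuba1b in the same fit across all probes. The banded and sham arrays overlapped for both genes, whereas they did not for 3.33% of probes. An exact two-sided permutation test over the 70 assignments of 4 arrays against 4 gave p = 0.629 for Actb and 0.4 for Tuba1b, where 0.0286 is the smallest value possible.

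With the close arrays of a group counted once, Actb stood at 6.66 ± 0.64 in banded and 6.53 ± 0.66 in sham (SD over 3 samples each), a difference of 0.13 (SE 0.42, 95% interval -0.84 to 1.11, limma adjusted p = 0.995). Tuba1b stood at 7.41 ± 0.55 and 7.16 ± 0.49, a difference of 0.25 (SE 0.35, 95% interval -0.57 to 1.06, limma adjusted p = 0.995). In that fit 0% of probes passed the adjusted and 2.03% the unadjusted limma threshold.

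Both estimates rose when banded 1 or sham 1 was left out. Without banded 1 the difference was 0.46 for Actb and 0.61 for Tuba1b, and without sham 1 it was 0.44 and 0.57, none of them past the threshold (limma adjusted p from 0.214 to 0.485). Without sham 2, Actb fell to 0.01, and without banded 4 to 0.05. Array quality weights gave 0.40 for Actb (limma adjusted p = 0.233) and 0.62 for Tuba1b (95% interval 0.19 to 1.05, limma adjusted p = 0.0652). These weights counted banded 1 (0.37) and sham 1 (0.44) least of the 8 arrays. The weighted fit thus leaned toward the fit without both, given next, where surgery and slide row coincide. An unadjusted limma p under 0.05 was common in the weighted fit, at 12362 of 35782 tested probes. With banded 1 and sham 1 both left out, Tuba1b was 0.81 higher in banded hearts (ratio 1.76, limma adjusted p = 0.0129) and Actb was at 0.70 (ratio 1.62, limma adjusted p = 0.0678). Those 6 arrays put every banded array in row 2 and every sham array in row 1, so surgery and slide row cannot be told apart in that fit. Passing was common there: 3838 of 35782 tested probes passed, Tuba1b among them, as did 6 of the 12 other named genes described below. On both genes banded 1 lay with sham arrays of its row, and sham 1 with banded arrays of its row. If the labels of these 2 arrays had been exchanged, the surgery groups would be the slide rows and the comparison of rows given next would be the surgery comparison, in which both genes passed with 8 arrays counted and neither with each close pair counted once. Exchanged labels and place on the slide cannot be told apart from these files, and the absence of a call holds for the labels as given.

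**Figure D2:**
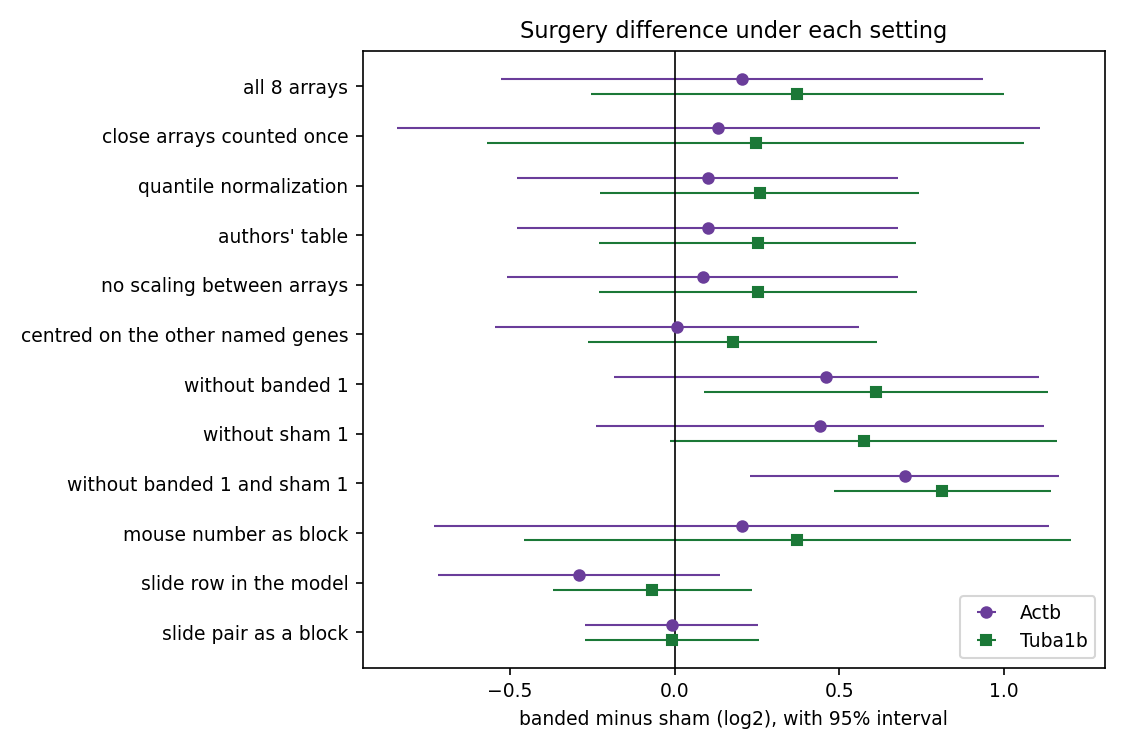
Banded minus sham difference (log2, horizontal axis) with its 95% interval from limma for Actb (circles) and Tuba1b (squares) under 12 settings. The estimates run from -0.29 to 0.70 for Actb and from -0.07 to 0.81 for Tuba1b, and the interval excludes 0 for both genes with banded 1 and sham 1 left out and for Tuba1b without banded 1.

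Place on the slide moved with both genes. The rows were compared because earlier results of these data had shown that they separate the arrays. The row p-values below therefore describe that separation and are not an independent test of it. The 75th percentile itself was lower in row 2, at 143 to 178 units, than in row 1, at 187 to 255 units. Relative to it, the log2 level of Actb ran from 6.86 to 7.22 in row 2 and from 5.91 to 6.51 in row 1, without overlap. In processed signal the rows overlapped for Actb, with banded 3 at 16632 units in row 2 below sham 3 at 17059 in row 1. For Tuba1b the scaled ranges were 7.68 to 7.79 in row 2 and 6.77 to 7.02 in row 1, again without overlap, and its processed signals did not overlap either. Such separation of scaled levels was common, as 26.5% of probes did not overlap between rows, and 19.7% passed the limma threshold between rows (12.6% higher in row 2). Both genes were among the latter, with a row 2 minus row 1 difference of 0.84 for Actb (SE 0.17, limma adjusted p = 0.00943) and 0.85 for Tuba1b (SE 0.11, limma adjusted p = 0.000832), higher on this scale in all 4 arrays of row 2 than in all 4 of row 1. The size depended on the scaling. Quantile normalization gave 0.59 for Actb and 0.60 for Tuba1b, and the authors' deposited table gave 0.59 and 0.60, each still past the threshold. With each close pair counted once, 2 per row, neither passed (limma adjusted p = 0.140 for Actb and 0.0841 for Tuba1b), where 3.99% of probes did. The row difference can be read within each surgery group. It was 1.03 for Actb and 0.96 for Tuba1b among banded arrays, and 0.95 and 0.80 among sham arrays, with 1 array on one side in each.

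Within rows the surgery estimates lay below 0 or close to it. In row 1, banded 1 minus the mean of the 3 sham arrays was -0.33 for Actb and -0.14 for Tuba1b. In row 2, the mean of 3 banded arrays minus sham 1 was -0.25 for Actb and 0.01 for Tuba1b. With slide row in the model the banded minus sham difference was -0.29 for Actb (SE 0.19, limma adjusted p = 0.741) and -0.07 for Tuba1b (SE 0.13, limma adjusted p = 0.904), where 0% of probes passed the adjusted and 5.53% the unadjusted limma threshold. Exchanging labels only within rows gave an exact permutation p of 0.25 for Actb and 0.5 for Tuba1b over 16 assignments, which cannot go below 0.0625. Banded 1, 2 and 3 and sham 2 lie in columns 1 and 2, and the other arrays in columns 3 and 4. Surgery and slide column were thus partly confounded in these estimates.

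Banded and sham can also be set side by side within the neighbouring pairs that hold an array of each. Over 15117 bright probes these pairs differed by only 0.97 and 1.17 times the noise between copies. A difference near 0 was thus common to bright probes and does not single out these 2 genes. Banded 1 minus sham 2 was 0.03 for Actb and -0.02 for Tuba1b, with spot errors of 0.02 and 0.01. Banded 4 minus sham 1 was -0.05 for Actb, with a spot error of 0.01, and 0.003 for Tuba1b, with a spot error of 0.02. For the pairs within a surgery group, sham 4 minus sham 3 was -0.13 for Actb and -0.09 for Tuba1b, and banded 3 minus banded 2 was -0.004 and 0.11. A fit that blocked on the neighbouring pairs put the difference at -0.01 for Actb (95% interval -0.27 to 0.25) and -0.01 for Tuba1b (95% interval -0.27 to 0.26). Only the pairs holding both groups bear on surgery in it, so the estimate rests on 4 arrays. The limma adjusted p was 0.9996 for both genes, which was also the smallest of all 35782 tested probes, and 0 probes passed.

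The array also carries controls placed toward either end of a transcript, which bear on RNA quality and labelling, and these differed between rows too. The 3′ minus 5′ log2 difference of mouse PGK1 was 3.85 to 4.24 in row 1 and 4.39 to 4.53 in row 2. For mouse GAPDH the ranges overlapped slightly, at 0.34 to 0.57 in row 1 and 0.56 to 0.67 in row 2. Their part in the levels of Actb and Tuba1b was not tested.

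The distance between Actb and Tuba1b was not the same on all arrays. The difference of their log2 signals on the same array does not depend on how arrays are scaled, and it was -0.83, -0.81, -0.93 and -0.55 on banded 1 to 4 and -0.50, -0.88, -0.51 and -0.55 on sham 1 to 4, with spot errors from 0.01 to 0.02. Only the change of this difference between arrays is of interest, as the brightness of separate probes cannot be compared. Between surgery groups it changed by -0.17 (banded -0.78 ± 0.16, sham -0.61 ± 0.18, SD, n = 4 each), with an exact permutation p of 0.286 over 70 assignments, and by -0.11 with close arrays counted once (exact permutation p = 0.5, n = 3 each).

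The values can also be laid out by slide column, a division chosen after they were seen and for that reason not tested. This division is partly confounded with surgery, as columns 1 and 2 hold mostly banded arrays and columns 3 and 4 mostly sham arrays. In columns 1 and 2 (banded 1, 2 and 3 with sham 2) the difference ran from -0.93 to -0.81, and in columns 3 and 4 (banded 4 with sham 1, 3 and 4) from -0.55 to -0.50. Sham 2, at -0.88, lay between banded 3 and banded 1. Banded 4 lay next to sham 4, both at -0.55, a distance below the spot error. In the authors' deposited table the same difference ran from -0.88 to -0.77 and from -0.57 to -0.49. The split was not particular to this pair of genes. Set against other named genes described below, Actb also separated by these columns from Hprt, Ppia, Tfrc and Rpl13a, and overlapped for Gk. For Hprt and Tfrc the ranges nearly met. The highest value in columns 1 and 2 and the lowest in columns 3 and 4 were 0.275 and 0.285 for Hprt, and 0.260 and 0.292 for Tfrc. Tuba1b separated from Rpl13a and overlapped for Hprt, Ppia, Tfrc and Gk. The share of all probe pairs that separate in this way was not computed.

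On the scale set by the 75th percentile, the step between columns was larger for Actb than for Tuba1b in both rows, again as a description. In row 1, Actb averaged 5.93 in columns 1 and 2 and 6.45 in columns 3 and 4, and in row 2 it averaged 6.86 and 7.20. Tuba1b averaged 6.78 and 6.98 in row 1 and 7.73 and 7.72 in row 2. In row 2 the 4 Tuba1b levels lay within 7.68 to 7.79, whereas Actb was lower in columns 1 and 2 than in columns 3 and 4 in both rows.

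**Figure D3:**
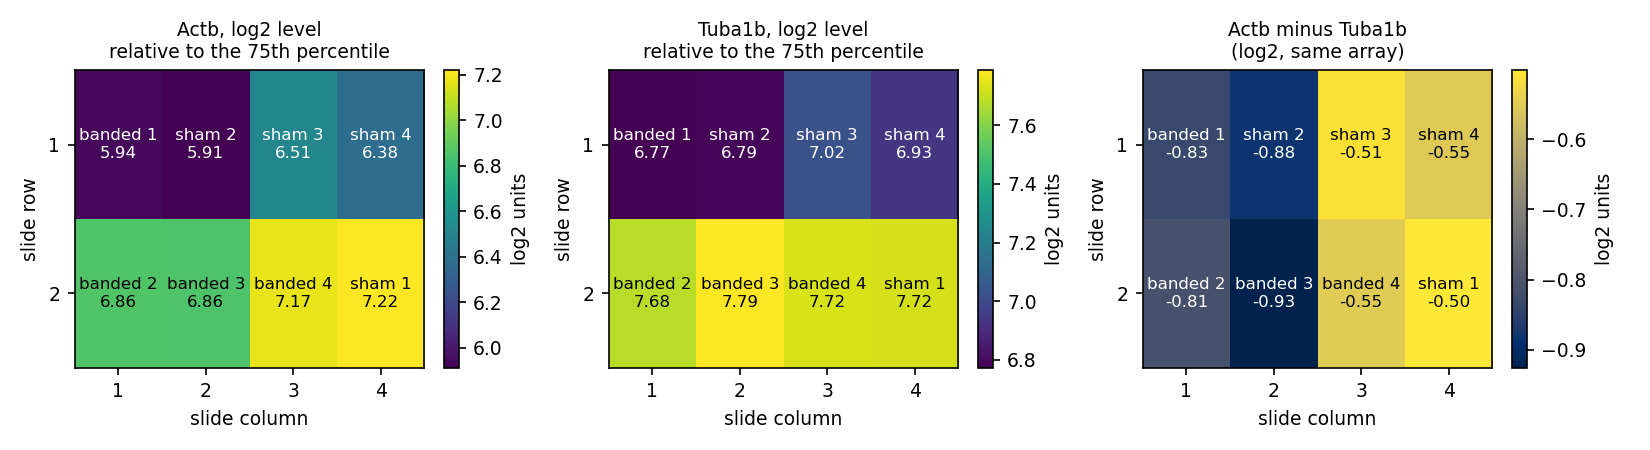
Each panel shows the 8 arrays at their place on the slide (2 rows by 4 columns), coloured and labelled with the log2 level of Actb, that of Tuba1b, both relative to the 75th percentile of the array, and the log2 difference of the 2 probes on the same array. Row 2 is higher than row 1 for both genes, and the difference lies between -0.93 and -0.81 in columns 1 and 2 and between -0.55 and -0.50 in columns 3 and 4.

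Among the 12 other named genes that were well above background on all arrays, the profiles most like that of Actb over the 8 arrays belonged to Hprt (purine salvage, Pearson r = 0.92), Ppia (a prolyl isomerase, r = 0.92) and Tfrc (the transferrin receptor, r = 0.86). Those most like Tuba1b were Hprt (r = 1.00), Ppia (r = 1.00) and Rpl13a (a ribosomal protein, r = 0.98). Gk, which encodes glycerol kinase, was least like either, at -0.50 for Actb and -0.71 for Tuba1b. Between themselves Actb and Tuba1b had an r of 0.93. This was above the values of Actb with all 12 other genes and below the values of Tuba1b with 5 of them. All these genes share the 8 arrays, which fall into slide rows and close pairs, so the values of r describe this slide and carry no p.

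The other named genes give the setting for the surgery estimates. Of the 12, 8 had a banded minus sham estimate above 0 and 4 below, with a median of 0.28 and a range of -0.43 to 0.50 over all 8 arrays, and 0 passed the threshold. The tally turned to 4 above and 8 below with slide row in the model, and to 2 above and 10 below with the slide pairs as blocks. Over all 8 arrays without those terms, Actb, at 0.20, lay below the median of 0.28, and Tuba1b, at 0.37, above it. When each array was centred on the mean of these 12 genes in place of the 75th percentile, Actb was at 0.01 (SE 0.25, limma adjusted p = 0.990) and Tuba1b at 0.18 (SE 0.20, limma adjusted p = 0.683). That mean was itself higher in row 2 (5.15 to 5.24) than in row 1 (4.75 to 4.83), on the log2 scale and measured from the 75th percentile. Between rows, 6 of the 12 passed the threshold, with a median difference of 0.47 against 0.84 for Actb and 0.85 for Tuba1b. With each close pair counted once 0 of the 12 passed.

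**Figure D4:**
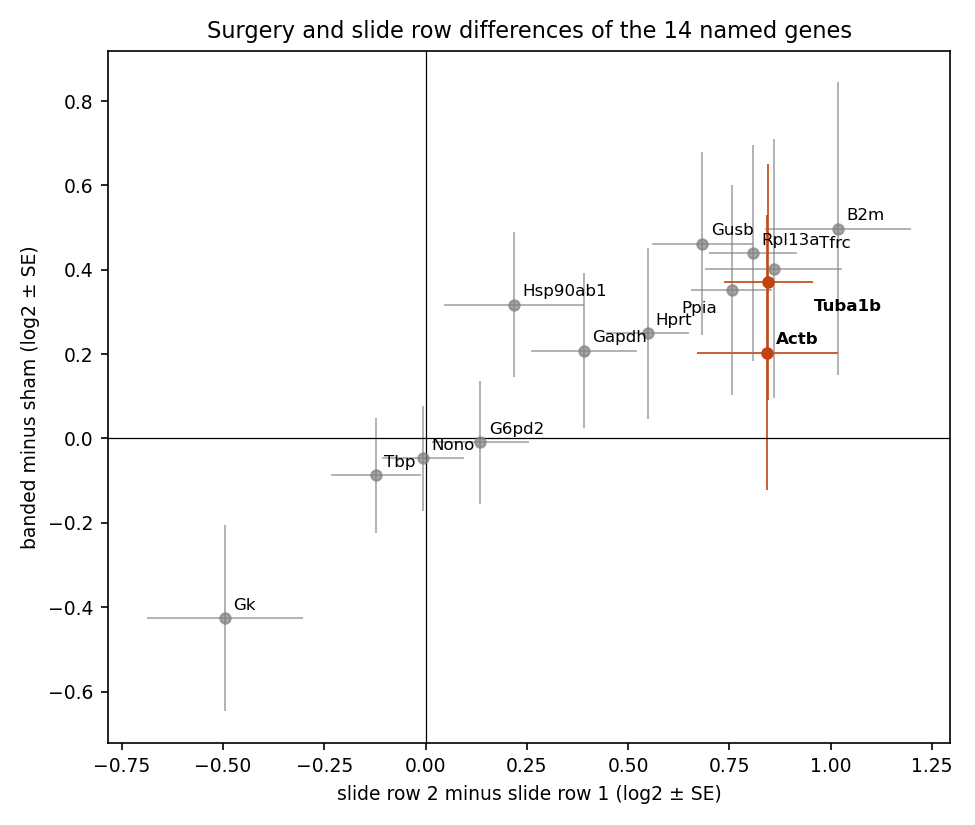
Banded minus sham difference (vertical axis, log2 ± SE) against slide row 2 minus row 1 difference (horizontal axis, log2 ± SE) from limma for the 14 named genes tested, with Actb and Tuba1b in colour. Both comparisons use the same 8 arrays, and row 2 holds 3 of the 4 banded arrays, so they are not independent; Actb lies at 0.84 and 0.20 and Tuba1b at 0.85 and 0.37.

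Of a list of 32 genes of the actin and tubulin families and their partners, Actb and Tuba1b alone are named in the files used here. The sarcomeric and smooth muscle actins, the other nonmuscle actin Actg1 and the other tubulins were therefore not analysed here. Actb and Actg1, and Tuba1b and its close relatives Tuba1a and Tuba1c, have very similar coding sequences, and whether the probes also bind those transcripts was not tested.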

How the data were processed

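Per the file headers, Agilent Feature Extraction (version 11.0.1.1 in the submitters' processing notes) wrote a processed intensity for each spot, together with flags of 0 or 1 and median intensities of spot and background. The authors' deposited table holds log2 intensities for 60902 probes, with column medians of 4.93. It served as an alternative, and how it was made is unknown here.

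Log2 processed intensities were averaged over the unflagged spots of a probe, after 15 negative probes were set aside, and the 75th percentile of an array was subtracted from its values. Probes well above background on at least 4 arrays were tested (35782) with limma 3.58.1 in R 4.3.3, with Benjamini-Hochberg adjustment, and the fit was tested on simulated data. The simulated arrays were drawn independently, without slide rows or close pairs, so that check does not cover those features of the real arrays. Other p-values are from exact two-sided permutation tests. Files were read with the R packages data.table (1.17.8) and jsonlite (2.0.0), and Python 3.11.15 with matplotlib 3.10.9 made the figures. Slide places came from the headers and were checked against the spot positions.

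The members, the lists and the alternatives, slide row and pair included, were chosen with earlier results of these data known. The genes described besides the members are, for each, the 3 most and the 1 least correlated of the other named genes. Their names came from RefSeq names for GRCm38.p6, matched by accession, while the headers name mm9, so no gene coordinates from it are given. The replicate number in the labels is a mouse number, and the labels state no pairing. The number of arrays limits the precision.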

Additional observations from a re-analysis of the deposited data

Results flagged for a closer look

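In 6 sets of 4 arrays (Actb, Tuba1b and their within-array difference, in each surgery group), the gap of an array to the nearest array was taken as a share of the range of the set. In 2 sets this share, 0.891 and 0.862, was above Dixon's 95% critical value for 4 samples. Chance passes that value in about 1 in 20 sets of independent values. Each set here holds 2 close arrays, and the third measure is the difference of the other 2, so that rate does not strictly apply. Tuba1b on banded 1, at a log2 level of 6.77 relative to the 75th percentile, lay below the next banded array at 7.68. The Actb minus Tuba1b difference on sham 2, at -0.88, lay below the next sham array at -0.55. Banded 1 is the only banded array in slide row 1, and sham 2 the only sham array in slide columns 1 and 2.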

How the results depend on the processing

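The surgery difference stayed positive and without a call for both genes under other background corrections, spot summaries, filters and scalings, but its size moved: Actb was at 0.10 with quantile normalization and with the authors' deposited table, 0.08 with no scaling and 0.01 centred on the other named genes, and Tuba1b at 0.26, 0.25, 0.25 and 0.18. Array quality weights gave 0.40 and 0.62. It reversed with slide row in the model (-0.29 for Actb, -0.068 for Tuba1b) and with a block for the slide pair (-0.0091 for Actb, -0.0081 for Tuba1b). Tuba1b passed the threshold at 0.81 with banded 1 and sham 1 left out, where 3838 of 35782 tested probes passed. Leaving out 1 array gave 0.01 to 0.46 for Actb and 0.26 to 0.61 for Tuba1b. The mouse number as a block changed no call of the members: 0.20 for Actb and 0.37 for Tuba1b, with limma adjusted p-values of 0.872 and 0.785. Arrays with the same number had correlations of deviations from -0.65 to -0.05. Banded and sham arrays of the same number always lie in opposite slide rows, so these values cannot show whether the mice were paired. With that block the within-array difference stayed at -0.17 (exact permutation p = 0.5), 8 of 12 other genes stayed above 0, and the row differences stayed at 0.84 and 0.85, with 0 probes called for surgery and 4617 between rows. With slide row in the model 4 of the 12 were above 0.

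The count of probes past the threshold for surgery was 0 to 2 when 1 array was left out. It was 3838 without banded 1 and sham 1, and 1 with array quality weights, with no scaling and with centring on the other named genes. Between rows it was 7034 with all arrays, 4619 to 6396 when 1 array was left out, 4715 with no filter on background and 1426 with close pairs counted once. There the row differences of 0.84 (Actb) and 0.85 (Tuba1b) no longer passed, with fewer samples in the fit. Leaving out 1 array gave row differences of 0.75 to 0.95 for Actb and 0.81 to 0.89 for Tuba1b, and -0.26 (without sham 2) to -0.12 (without banded 3) for the within-array surgery difference. The row differences were smaller, at 0.59 for Actb and 0.60 for Tuba1b, with quantile normalization and with the authors' deposited table. Where no reason is given, the cause was not tested. The planned normexp on mean signals was not run, since the files hold median signals, and normexp on those was added after seeing the data.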
